A study of Mus musculus with 2 samples.

Results

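The genes described here serve the self-renewal of spermatogonial stem cells and the signalling of GDNF, the niche factor on which these cells depend. The 10 genes are Gfra1, Ret, Id4, Etv5, Bcl6b, Lhx1, Eomes, Pax7, Zbtb16 and Foxo1, chosen by name from known function among 21887 protein-coding genes. Peaks of H3K4me3 were assigned to a gene where they overlapped its annotated body or the 5000 bp either side. The rule found 50 peaks of the 135064 in the list. The mark was profiled by CUT&RUN, in which a nuclease tethered by an antibody cuts out the chromatin that carries the mark for sequencing. The cells were Oct-GFP+ prospermatogonia, the fetal male germ cells that later give rise to the stem cells, sorted at E17.5 with 130000 cells per assay. There was 1 library for H3K4me3 and 1 for control IgG, both from such cells, and only the peak list of the first was analysed. With 1 library there is no test between groups, no replicate error and no p-value, so values carry counting intervals only. The cells are a bulk sample, in which a mark in part of the cells and a weaker mark in all of them cannot be told apart.

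GDNF is released by somatic cells of the testis and binds GFRA1, a co-receptor anchored in the membrane, which then activates the receptor tyrosine kinase RET. The signal runs through SRC family kinases, PI3K and AKT, and it raises the transcription factors ETV5, BCL6B, LHX1 and ID4 in stem cells. ZBTB16, also called PLZF, and FOXO1 act in stem cell maintenance, and EOMES and PAX7 mark small subsets of early spermatogonia. H3K4me3 is found at promoters that are active and at many that are poised, so its presence does not by itself report transcription.

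Start sites and upstream sequence were taken from RefSeq (GRCm38.p6, the build of mm10), which listed 8 promoters for 7 of the 10 genes. Ret, Bcl6b and Zbtb16 had no entry, and both annotated ends were used for them. The promoters of 5 members are shown, 250 bases up to the start site, because they span the range of CpG content of the 8 listed promoters. Each reads 5′ to 3′ along its gene, with CG dinucleotides in capitals.
Id4 (chr13:48260866-48261115, plus strand): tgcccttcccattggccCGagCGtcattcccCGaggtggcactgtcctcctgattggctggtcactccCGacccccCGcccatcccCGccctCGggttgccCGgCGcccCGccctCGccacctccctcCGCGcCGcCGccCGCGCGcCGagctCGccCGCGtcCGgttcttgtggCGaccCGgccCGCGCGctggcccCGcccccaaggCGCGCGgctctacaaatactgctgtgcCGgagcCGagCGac
Lhx1 (chr11:84525535-84525784, minus strand): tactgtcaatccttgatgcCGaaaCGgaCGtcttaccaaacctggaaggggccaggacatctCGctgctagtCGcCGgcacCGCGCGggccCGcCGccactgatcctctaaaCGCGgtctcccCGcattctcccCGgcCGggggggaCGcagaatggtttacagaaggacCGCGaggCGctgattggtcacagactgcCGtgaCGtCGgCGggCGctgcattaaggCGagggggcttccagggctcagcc
Foxo1 (chr3:52268087-52268336, plus strand): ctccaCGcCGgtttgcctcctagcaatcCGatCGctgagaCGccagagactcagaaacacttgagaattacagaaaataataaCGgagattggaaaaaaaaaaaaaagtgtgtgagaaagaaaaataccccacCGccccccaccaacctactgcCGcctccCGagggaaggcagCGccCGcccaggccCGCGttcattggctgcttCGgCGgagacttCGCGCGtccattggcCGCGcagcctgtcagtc
Gfra1 (chr19:58455399-58455648, minus strand): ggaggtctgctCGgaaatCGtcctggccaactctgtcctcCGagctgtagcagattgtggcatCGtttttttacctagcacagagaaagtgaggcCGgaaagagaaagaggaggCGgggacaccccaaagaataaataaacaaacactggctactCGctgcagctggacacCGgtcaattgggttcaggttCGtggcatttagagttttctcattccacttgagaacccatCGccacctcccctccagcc
Eomes (chr9:118477939-118478188, plus strand): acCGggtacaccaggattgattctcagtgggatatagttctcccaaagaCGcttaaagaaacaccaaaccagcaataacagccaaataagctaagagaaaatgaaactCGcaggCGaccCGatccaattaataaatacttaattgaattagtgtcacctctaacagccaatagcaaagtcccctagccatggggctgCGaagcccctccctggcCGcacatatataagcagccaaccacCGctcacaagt

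The printed stretch of Id4 holds 35 CG dinucleotides, that of Lhx1 26 and that of Foxo1 20. Gfra1 and Eomes hold only 10 and 8. Over the full 300 bases of a table entry, which reach 50 bases past the start, the 8 member promoters had a median of 25 CG dinucleotides, against 13 over 21263 promoters of protein-coding genes. H3K4me3 peaks followed this content across all genes. Of promoters with 0 to 4 CG dinucleotides 21.5% had a peak within 1000 bp, of those with 5 to 14 it was 76.4%, and with 25 or more it was 99.5%. Among members, 4 promoters lay in the densest class, 2 in the class of 15 to 24 and 2 in that of 5 to 14. The letters CCAAT, searched on both strands, occurred in 7 of 8 member promoters and in 38.2% of all. GGGCGG, the GC box, occurred in 4 of 8 and in 46.2%, and TATAAA in 0 of 8 and in 12.6%. TGTTTAC, a motif bound by forkhead factors such as FOXO1, occurred in 1 of 8, the promoter of Etv5 with 37 CG dinucleotides, and in 3.01% of all. These are matches of letters in a window and do not show binding.

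All 10 genes carried H3K4me3 at a start or, where no start is listed, at an annotated end. A peak within 1000 bp of such a position made a gene marked. Over all protein-coding genes 73.6% were marked, and the Wilson interval of the members' share, 72.2 to 100%, reaches down to that level. With the windows moved by 100 kb, 2 of the 10 genes met a peak (20.0%, Wilson interval 5.67 to 51), against 16.4% of all genes. All 10 had a peak in body or flanks, as did 88.3% of all protein-coding genes. Of the 50 peaks 23 lay over a start window, 15 elsewhere in a body and 12 elsewhere in a flank.

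Fragments at the summit were ordinary for a marked gene, while the caller's local background was high and the fold low. The summit count, or pileup, and the local background were recovered from each peak's deposited fold and p, the fold being pileup plus 1 over background plus 1. The highest summit in each start window had a median of 41 fragments over the 10 genes, against 42 over 16114 marked genes. Its local background had a median of 10.7 fragments against 6.02, and its fold a median of 3.70 against 6.11. A fold of at least 5 was reached by 1 of the 10 genes (10%, Wilson interval 1.79 to 40.4), and by 56.7% of all protein-coding genes, unmarked ones included. That gene was Ret. No source used here states which library set the background. The deposited peak names carry IgG, so the background may be that of the control library or that of the surroundings in the H3K4me3 library, and a high background or low fold cannot be assigned to either.

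**Figure D1:**
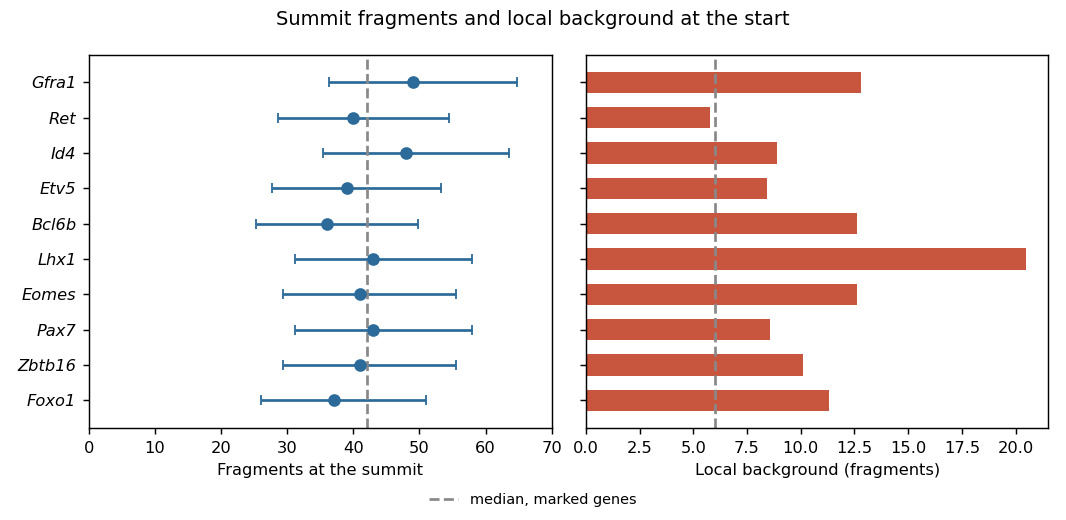
Fragments at the highest summit of the start window with 95% exact Poisson intervals (left) and the local background of that summit (right), both in fragments, for the 10 genes. Dashed lines are the medians of marked protein-coding genes, 42 and 6.02. The summit counts of all 10 genes have intervals that include 42, and the background of every gene but Ret lies above the dashed line.

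Among the members the summit counts did not differ beyond counting error. Gfra1 had the most with 49 fragments (95% Poisson interval 36.3 to 64.8), and Bcl6b the fewest with 36 (25.2 to 49.8). Id4 had 48, Lhx1 and Pax7 43, Eomes and Zbtb16 41, Ret 40, Etv5 39 and Foxo1 37, and the intervals of all 10 overlap. The background spread much more, from 5.78 fragments at Ret to 20.5 at Lhx1, so the order of the folds followed mainly the background. Percentiles of background among marked genes with the same kind of start were 99.8 for Lhx1, 97.3 for Gfra1, 97.0 for Eomes, 96.0 for Bcl6b and 95 for Foxo1. Zbtb16 stood at 89.2, Id4 at 86.1, Pax7 at 84.0, Etv5 at 83.4 and Ret at 45. By fold the same genes were low, with Lhx1 at percentile 0.0195, Bcl6b at 1.71, Foxo1 at 2.34, Eomes at 2.38 and Gfra1 at 5.55.

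**Figure D2:**
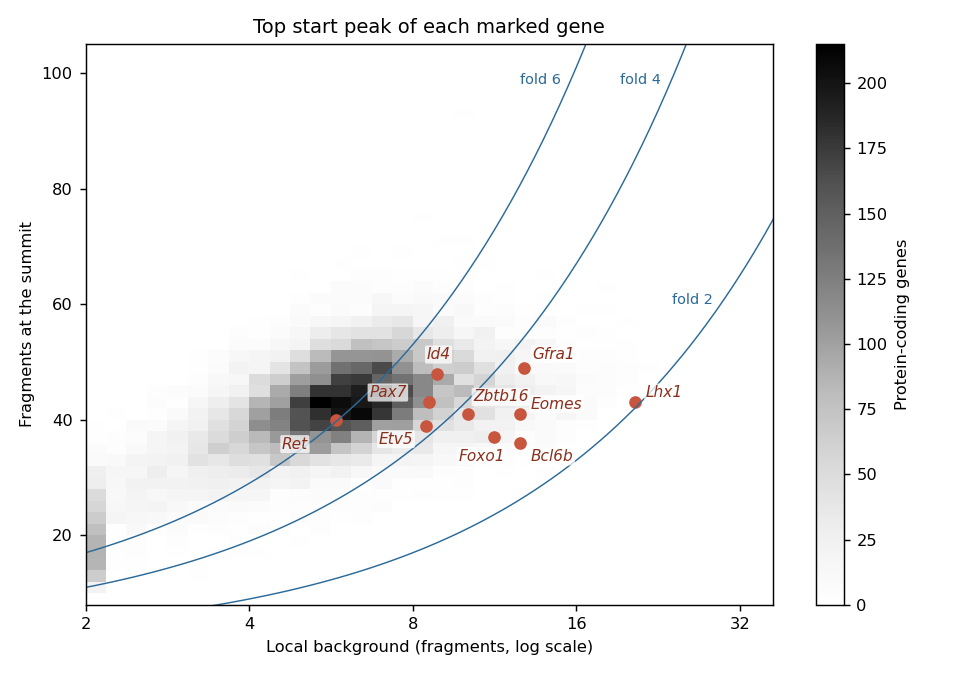
Fragments at the highest summit of the start window against its local background (log scale) for marked protein-coding genes, shaded by the number of genes per bin, with the 10 members as points. Lines join equal fold. Ret, at 40 fragments over 5.78, lies in the densest area, and Lhx1, at 43 over 20.5, lies farthest to the right at a fold of 2.05.

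As called, the mark lay in wide domains at 6 of the 10 genes and in 3 or more peaks at 5. Within 2500 bp of a start, 5 of the 10 genes had 3 or more peaks (50%, Wilson interval 23.7 to 76.3), against 12.1% of all protein-coding genes. Eomes had 5, Zbtb16 4, and Gfra1, Etv5 and Foxo1 3 each. Joined over gaps of up to 1000 bp, the domains of 6 genes were among the widest 5% of the library, at 2002 bp or more (60%, Wilson interval 31.3 to 83.2), against 18.6% of all protein-coding genes. Those were Eomes at 3587 bp, Foxo1 at 3528, Gfra1 at 3199, Etv5 at 3185, Zbtb16 at 2974 and Id4 at 2536. Ret at 1974 and Pax7 at 1922 fell just short, and Bcl6b had 1746 bp and Lhx1 1139. The number of peaks and the domain width come from the same peaks and are not independent of each other. Peaks were called over the local background, so neither is separate from the background and fold given above. Whether the breaks between called peaks are gaps in the mark was not tested. Both shares of all protein-coding genes count unmarked genes too, while all 10 members are marked. Among marked genes alone, the median domain width was 2755 bp in the members and 1603 bp over all. Within the 1000 bp window itself coverage was not raised, with a median of 1137.5 bp against 1309 bp over marked genes.

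**Figure D3:**
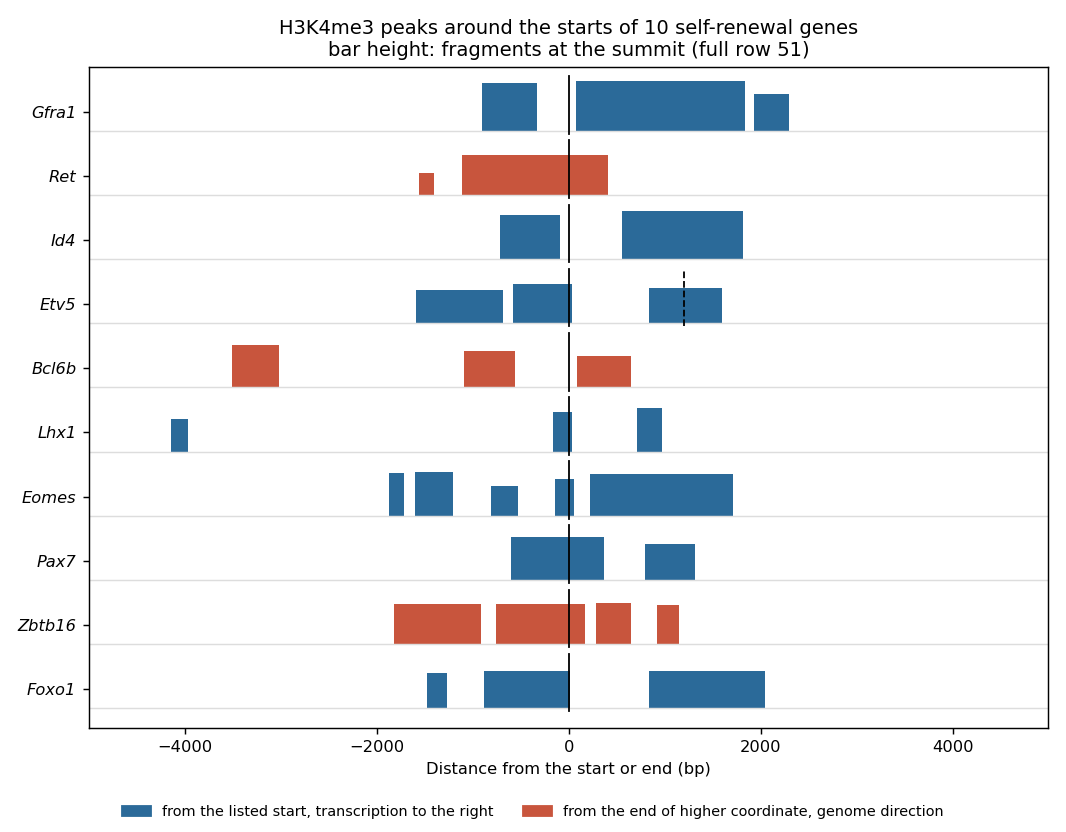
Peaks within 5000 bp of the start of each gene as bars, with distance in bp on the horizontal axis and bar height giving fragments at the summit (a full row is 51). Blue rows are set on the listed start with transcription to the right (dashed line, the other listed start of Etv5), and red rows on the end of higher coordinate in genome direction. The listed start of Id4 and that of Gfra1 fall in a gap between peaks, and Eomes shows 5 separate peaks.

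The 2 receptor genes were both marked, Gfra1 in 3 peaks around its start and Ret in 2 at one end. Gfra1 spans chromosome 19 from 58235581 to 58455946. Its listed start at 58455398 lay in a gap of 401 bp. Downstream of it was a peak of 1761 bp (58453564 to 58455324, 49 fragments, background 12.8, fold 3.61). Upstream was a peak of 577 bp (58455726 to 58456302) with 47 fragments. That upstream peak covers the annotated end of Gfra1 at 58455946, so the gap concerns the listed start only. The upstream peak also covers the start of Gm41876, a long noncoding RNA gene, so it cannot be assigned to Gfra1 alone. A further peak of 365 bp with 37 fragments followed 95 bp farther into the gene. The mark thus lay on both sides of this start at like counts. Ret spans chromosome 6 from 118151748 to 118197744 and held 2 peaks. A peak of 1528 bp (118196627 to 118198154) covered the end of higher coordinate with 40 fragments, background 5.78 and fold 6.04. One small peak of 164 bp with 22 fragments lay 282 bp inside it, and no other peak was found in the body or flanks.

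Id4 encodes an inhibitor of helix-loop-helix transcription factors and is a marker of cells with stem cell activity. It spans chromosome 13 from 48261116 to 48266028. Its CG-rich start lay in a gap of 640 bp, with a peak of 632 bp upstream (44 fragments, 32 to 59.1, fold 4.55) and one of 1264 bp inside the gene (48 fragments, 35.4 to 63.6, fold 4.96). The inner peak covers the start of A330033J07Rik, a long noncoding RNA gene that overlaps Id4. Both sides therefore held like counts, and the background was 8.88 fragments at each. Of the 7 members with a listed start, 5 had the start base itself inside a peak (71.4%, Wilson interval 35.9 to 91.8), against 82.2% of marked genes with a listed start, and Id4 and Gfra1 were the exceptions.

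The GDNF-induced transcription factor genes Etv5, Bcl6b and Lhx1 were marked at unlike folds. Etv5, an ETS family factor, spans chromosome 16 from 22381313 to 22439570 and has 2 listed starts, at 22439570 and 22438368. The first held peaks of 615 bp with 39 fragments (27.7 to 53.3, fold 4.23) and of 904 bp with 33, separated by 101 bp. The other start lay in a peak of 761 bp with 35 fragments (24.4 to 48.7) and fold 3.90, so both start sites were covered at like counts. The promoter of the first has 37 CG dinucleotides and that of the other 19. Bcl6b, a zinc finger repressor related to BCL6, spans chromosome 11 from 70224127 to 70229798. Its end of higher coordinate lay between a peak of 541 bp with 36 fragments and one of 563 bp with 31, at folds of 2.72 and 2.33 over backgrounds of 12.6 and 12.7. The middle of the gene held 42 fragments in 487 bp, and the lower flank a peak of 1103 bp with 44 fragments that lies inside the neighbouring gene Slc16a13. The ends of Bcl6b thus held no more fragments than the rest of its locus.

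Lhx1, a LIM homeobox gene, had the highest background and the lowest fold of the 10. It spans chromosome 11 from 84517975 to 84525534, and its start lay in a peak of only 202 bp with 39 fragments (27.7 to 53.3), background 18 and fold 2.11. That peak also covers the start of Lhx1os, a long noncoding RNA gene next to it. A peak of 264 bp with 43 fragments lay 673 bp farther into the gene, over a background of 20.5, and the highest count of the locus, 49 fragments in 723 bp, was 5661 bp downstream of the start. In the 10 kb centred on its highest start summit, 1326 bp were called as peaks, at percentile 26.0, while the background was at percentile 99.8. Called width and local background thus stood far apart at Lhx1. In the lower flank, peaks of 584 bp and 882 bp sit 26 bp and 54 bp from the start of Aatf and had folds of 6.52 and 5.51.

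Eomes, a T-box factor gene, held 9 peaks, the most of the 10 genes. It spans chromosome 9 from 118478186 to 118486132. Around the start at 118478189, peaks of 160, 401, 280, 205 and 1498 bp held 42, 43, 30, 37 and 41 fragments, over backgrounds of 12.2 to 12.6. The Poisson intervals of all 5 counts overlap, and the breaks between these peaks were 104 to 397 bp long. The widest covers starts of the noncoding gene Gm33408. Past the other end of the gene 4 more peaks held 30 to 51 fragments, and the strongest, 51 fragments (38.0 to 67.1) at fold 4.87, covers the start of Gm33460. The promoter of Eomes is the poorest in CG among members with a listed promoter, with 10 in 300 bases, and its start base was covered by a peak. For promoters of 5 to 14 CG dinucleotides the median background of marked ones was 5.51 fragments and the median fold 6.50, against 12.6 and 3.09 at Eomes.

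Pax7, Zbtb16 and Foxo1 are long genes with start or end peaks of like counts, and Pax7 also held peaks deep in its body. Pax7, a paired box factor gene, spans chromosome 4 from 139737059 to 139833530. Its start at 139832968 lay in a peak of 973 bp with 43 fragments (31.1 to 57.9), background 8.56 and fold 4.60, which also covers the start of Gm46873, and 527 bp with 36 fragments followed inside the gene. The other 4 of its 6 peaks lay 8600 to 42794 bp downstream of the start. Zbtb16 spans chromosome 9 from 48651797 to 48836225. At its end of higher coordinate 4 peaks of 911, 938, 364 and 236 bp held 40, 40, 41 and 39 fragments, at folds of 3.68 to 3.80. These counts were nearly equal, and the gaps between the peaks were 109 to 270 bp. Foxo1, a forkhead factor gene, spans chromosome 3 from 52268337 to 52350109. Its start lay at the inner edge of a peak of 893 bp with 37 fragments (26.1 to 51), and a peak of 1210 bp with 37 began 827 bp farther in, at folds of 3.08 and 3.16. No peak was called in the rest of its body.

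The highest folds of the members lay away from the starts. In the start windows the 23 peaks had folds from 2.05 to 6.04 with a median of 39 fragments, and 1 of 23 had a fold of at least 5. In the bodies 7 of 15 peaks reached a fold of 5, with a median fold of 4.02 and 32 fragments. In the flanks it was 4 of 12, with a median fold of 3.87 and 37.5 fragments. Those 4 include the peaks next to the start of Aatf, near Lhx1, and the peak inside Slc16a13, near Bcl6b. Such peaks cannot be assigned to the members alone. Over all protein-coding genes, 57.1% of peaks in start windows reached a fold of 5, with a median fold of 5.36 and 39 fragments. Of other peaks in bodies and flanks 64.6% did, with a median fold of 5.87 and 28 fragments. Median folds of the members' peaks were thus below those of all genes in and away from the start windows. The classes away from starts are not quite alike. That of all genes leaves out peaks over any protein-coding start, while a member's peaks were sorted by its own start only. The highest fold of any member was 10.6, inside Pax7 from 139789886 to 139790594, 42794 bp downstream of the start. There 32 fragments (21.9 to 45.2) stood over 2.11, the lowest background in the list, which 31.1% of solved peaks shared. Inside Gfra1 a peak of 1266 bp (58357893 to 58359158) lay 97215 bp from the start with 40 fragments (28.6 to 54.5) and fold 9.06. Another lay 214442 bp from the start with 24 fragments and fold 8.03, also over the lowest background. Inside Etv5, 942 bp held 34 fragments at fold 8.05, 9094 bp from the nearer start. A higher fold at these peaks went with a lower background and not with more fragments than at the starts.

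**Figure D4:**
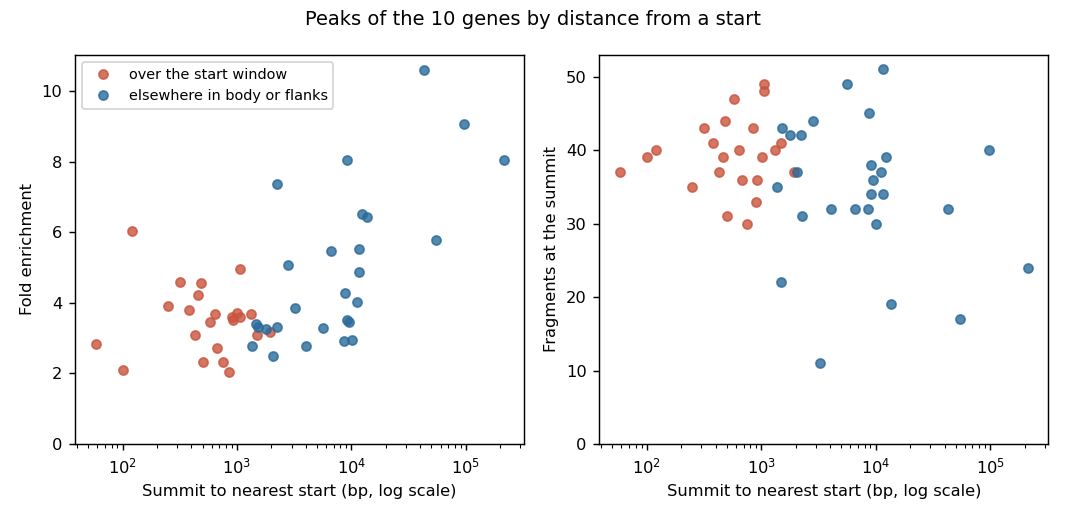
Fold enrichment (left) and fragments at the summit (right) of the 50 peaks against the distance of the summit from the nearest start or end, in bp on a log scale. Peaks over start windows are red and all others blue. Folds reach 10.6 far from the starts, where fragments are between 17 and 40 in the 4 peaks farthest away, and the highest count, 51, lies 11557 bp from the start of Eomes.

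In Ret, Zbtb16 and Foxo1 no peak summit lay inside the gene more than 5 kb from a start or end, as in 35.5% of 5404 protein-coding genes of at least 45 kb. Pax7 and Gfra1 had 4 each, or 4.15 and 1.82 per 100 kb of gene, and Etv5 had 1. The median over these long genes was 1.31 per 100 kb, so the density in Gfra1 stood at percentile 59.6, that in Pax7 at 85 and that in Etv5 at 57.7. The weakest peak of Zbtb16, 283 bp with 11 fragments (5.49 to 19.7), lay 3233 bp inside its lower end, and a peak of 1291 bp with 31 fragments and fold 7.36 lay outside that end.

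Other genes of the pathway were read beside the 73.6% of all protein-coding genes that were marked. Among GDNF family ligands and co-receptors 7 of 10 were marked (70%, Wilson interval 39.7 to 89.2), a share near that of all genes. The highest were Gfra2 and Gfra3, co-receptors for related ligands, with 49 fragments each, and Sdc3 with 45. Gfral, Nrtn and Pspn, a distant receptor relative and 2 ligand genes, were not. Gdnf, named after its value was seen, had 40 fragments over a background of 16.2 (fold 2.38). Its co-receptor gene Gfra1 had 49 over 12.8. Of 23 signal transducers 22 were marked (95.7%, 79.0 to 99.2), among them the adaptor gene Shc1 with 52 fragments (38.8 to 68.2) and the kinase gene Map2k1 with 51. The median background of this list was 7.43 fragments, nearer to the 6.02 of all marked genes than that of the members.

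Of the FGF, CSF1 and CXCL12 niche signals 9 of 11 were marked (81.8%, Wilson interval 52.3 to 94.9), led by Fgf2 and Csf1 with 54 fragments each and the chemokine receptor gene Cxcr4 with 52. Csf1r, a receptor of macrophages, had no peak in body or flanks, and Fgf9 had 4 there but none over its start. Of 28 other genes of undifferentiated spermatogonia 23 were marked (82.1%, 64.4 to 92.1), led by Neurog3 with 53 fragments, Thy1 with 51 and Pdx1 with 50. The intervals of both lists include the 73.6% of all genes. Egr3, Nanos2 and Nanos3 were among the 5 unmarked, with 4, 4 and 1 peaks in body or flanks. Median backgrounds were 9.26 and 9.23 fragments in these lists.

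The closest relatives of the members also carried the mark. All 15 paralogs were marked, beside the 73.6% of all genes, with a median of 45 fragments over a median background of 12.3. Id3 had 64 fragments (49.3 to 81.7) over 14.9, Id2 50 over 18 and Id1 51 over 9.94, next to 48 over 8.88 at Id4. Etv1 had 42 over 13.3 and Etv4 44 over 6.78, on either side of Etv5 with 39 over 8.45. Bcl6 had 56 over 15.2, Lhx5 45 over 16, Tbr1 59 over 12.3, Tbx21 40 over 6.75 and Pax3 52 over 19.2. Zbtb32 had 60 over 8.88 and Zbtb7a 41 over 11.3. Among FOXO genes, Foxo3 had 36 over 14.2, Foxo6 44 over 7.16 and Foxo4, on the X chromosome, 33 over 4.50. Of the paralogs 7 of 15 had 3 or more peaks within 2500 bp, beside 12.1% of all protein-coding genes, and 6 lay in wide domains, beside 18.6%. High local background was thus also found outside the self-renewal genes, and the lists were not tested against each other.

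**Figure D5:**
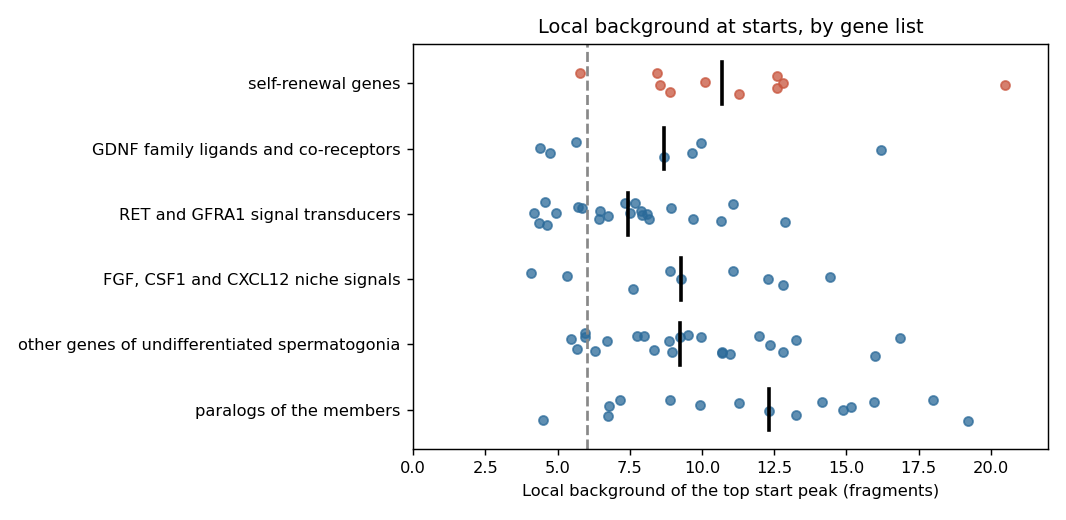
Local background, in fragments, of the highest start summit of each marked gene in 6 lists, with a black bar at each median and a dashed line at 6.02, the median of all marked protein-coding genes. The self-renewal genes have a median of 10.7, between 12.3 of their paralogs and 7.43 of the signal transducers.

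Marker lists of cell types were read in the same way. All 8 germ cell markers were marked (Wilson interval 67.6 to 100%), beside 73.6% of all genes. Of Sertoli markers 5 of 8 were (30.6 to 86.3), of Leydig markers 2 of 6 (9.68 to 70) and of endothelial and blood markers 4 of 8 (21.5 to 78.5). Only the Leydig interval leaves out 73.6%. The germ cell list includes Pou5f1, which encodes an OCT factor, with 106 fragments over a background of 32.71 (fold 3.17). The cells were sorted as Oct-GFP+, so this gene is no independent check of their identity. The Leydig genes Cyp17a1, Hsd3b1 and Star had no peak in body or flanks. Cyp11a1 with 51 fragments, Sox9 with 46 and Kdr with 52 were marked, and the part of other testis cells in the values above was not tested.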

How the data were processed

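H3K4me3 CUT&RUN of sorted E17.5 prospermatogonia gave 1 peak list, while the IgG library was not analysed. MACS2 2.1.0, Bowtie2 2.5.0, Trim Galore, deepTools 3.5.1, bedtools 2.27.1 and SAMtools 1.16.1 are named in the submitters' processing notes, with builds mm10 and sacCer3 and without settings. The authors deposited for each peak a fold enrichment, which is a ratio at the summit to the local background. The deposited list also gives −log10 p and −log10 q values and a score, the score being 10 times −log10 q without decimals in 99.999% of peaks. These are the authors' values and describe peaks within this list only.

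Pileup and background of each summit were solved from fold and p, the p taken as a Poisson upper tail, with pileups up to 2000. Of 135064 peaks 135053 were solved within 0.0001, all 50 member peaks among them. Backgrounds above the lowest, 2.113 fragments, were multiples of 0.0158 fragments within 0.05 of a step. No source used here states whether the background reads the H3K4me3 or the IgG library, and reads were not used. The total number of fragments is unknown, and fragments carry no molecular identifiers, so intervals (95% Wilson or exact Poisson) cover counting error only.

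Starts came from a RefSeq promoter table (GRCm38.p6), or both gene ends where it had none. Percentiles are the share of marked genes with a lower value, with ties split evenly, among 12813 genes with a listed start or 3301 without. Members and lists were chosen with earlier results of these data known. All members were named, and of each list the 3 with the highest summit and up to 3 unmarked genes in alphabetical order, all paralogs, and genes whose start lay under a member's peak. Some genes that this rule names are not reported here. Any further gene was picked after its value had been seen. Other settings covered windows, flanks, thresholds, overlap and join gaps. On simulated peaks at 200 of 21887 genes, 200 were called with 0 others, and 200 of 200 pileups were recovered. The 200 genes had no start of another gene within 5000 bp, so calls at other genes could not arise. Fold and p were made with the formula that was then solved, so the simulation checks the code and not the formula. Its backgrounds stayed below those of Gfra1, Bcl6b, Eomes and Lhx1. The scripts ran on Python 3.11.15 with scipy 1.17.1, numpy 2.4.6, statsmodels 0.14.6, pandas 2.3.3 and matplotlib 3.10.9.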

Additional observations from a re-analysis of the deposited data

How the results depend on the processing

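No paired analysis was possible because there is 1 library per antibody. The count of 10 marked members stayed at 10 within 500 bp (71.3% of all protein-coding genes) and within 2500 bp (77.8%). It was also 10 with 200 bp shared (72.1%), with summits required inside the window (71.2%) and with both gene ends for every gene (74.5%). With −log10 q of at least 5 it was 9 (73.1%). It fell to 6 with −log10 q of at least 10, beside 67.7% of all protein-coding genes, and to 1 with a fold of at least 5, beside 56.7%. The 50 peaks over bodies and flanks became 32 with no flank, 26 with −log10 q of at least 10 and 12 with a fold of at least 5, and lay between 39 and 63 under the other alternatives. Wide domains held 5 members with join gaps of up to 500 bp, beside 20.3% of all protein-coding genes. With a join gap longer than the main 1000 bp they held 6, beside 10.3%. With the widest 10% they held 9, beside 33.6%. Median coverage of the start window was 2088 bp within 2500 bp, against 1303 bp over all genes, and 1087.5 bp with −log10 q of at least 5, against 1103 bp. The median summit was 40.5 fragments within 500 bp and 42.5 within 2500 bp, and all 20 recomputed member summits stayed within their Poisson intervals. The fold thresholds remove peaks of high local background, so those counts follow from how the fold is built. At about 40 fragments a summit, differences between members of the size seen here were not detectable.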
